A study of Mus musculus with 18 samples.

Results

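The 9 genes described here handle or control iron in the cell: the ferritin chains Fth1 and Ftl1, the transferrin receptor Tfrc, the iron regulatory proteins Aco1 and Ireb2, the exporter ferroportin (Slc40a1), the metal transporter Slc11a2, the ferritin autophagy receptor Ncoa4 and haem oxygenase 1 (Hmox1). They were taken by symbol, and all 9 were present among the 19862 genes of the deposited table and passed the filter on low values. The table holds RNA-seq levels of mouse osteosarcoma (mOS) cells, lines derived from tumours of p53 and Rb conditional knockout mice of mixed strain background, labelled postnatal day 299. All cells carried floxed Prmt1 alleles (Prmt1 f/f) and a stable CreER transgene. Control cells received the ethanol vehicle (their genotype label reads "wild type" although they carry the floxed alleles), and knockout cells received 4OHT, a tamoxifen that activates CreER to delete Prmt1, which encodes an arginine methyltransferase. From each culture lysed with cycloheximide at 100 µg/ml, RNA was taken from the cleared lysate (Total) and from pooled sucrose gradient fractions with fewer than 3 ribosomes per message (Light) or more than 3 (Heavy), with 3 libraries in each of the 6 groups. No group received 4OHT without floxed Prmt1, so the drug, Cre activity and the loss of Prmt1 cannot be told apart, and the labels do not say whether the cells are a single clone. The labels do not state separate cultures for the 3 libraries of a group, and the p-values below therefore measure only how these libraries spread, which may be technical.

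Iron regulatory proteins bind a short RNA hairpin, the iron-responsive element, when the cell is short of iron. Bound in the 5′ untranslated region (5′UTR), as in the ferritin and ferroportin messages, the protein blocks ribosome loading. Bound in the 3′UTR, as in the transferrin receptor message, it protects the message from decay, so that a cell short of iron takes up more and stores less. Ncoa4 carries ferritin to lysosomes to release its iron. Hmox1 frees iron from haem and is a classical target of the oxidative stress factor NRF2.

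The hairpin itself is shown here because the members differ in whether and where they carry it. Coding transcripts of GENCODE M21 (GRCm38, the same assembly as mm10) were searched on the sense strand for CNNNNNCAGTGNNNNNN, in which the 5 bases after the first C pair with the last 5 (G:T pairs allowed). Capitals mark the unpaired C and the 6-base loop of each message, printed 5′ to 3′ with 5 more bases on either side.
Fth1 5′UTR, chr19:9982733-9982759, plus strand: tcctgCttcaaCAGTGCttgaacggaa
Ftl1 5′UTR, chr7:45459780-45459806, minus strand: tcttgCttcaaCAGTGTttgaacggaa
Slc40a1 5′UTR, chr1:45925466-45925492, minus strand: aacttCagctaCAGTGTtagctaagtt
Slc11a2 3′UTR, chr15:100395154-100395180, minus strand: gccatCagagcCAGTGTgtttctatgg
Tfrc 3′UTR, chr16:32631220-32631246, plus strand: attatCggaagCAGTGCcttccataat
Tfrc 3′UTR, chr16:32631599-32631625, plus strand: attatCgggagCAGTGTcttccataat
Tfrc 3′UTR, chr16:32631664-32631690, plus strand: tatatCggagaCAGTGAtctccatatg
Tfrc 3′UTR, chr16:32631711-32631737, plus strand: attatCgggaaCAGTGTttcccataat
Fth1, Ftl1, Slc40a1 and Tfrc held sites with all 5 pairs, and the Slc11a2 site had 4 of 5 and lay in 1 of its 2 coding transcripts. The Ftl1 site and each Tfrc site likewise lay in 1 of 2 coding transcripts of their gene. The Fth1 site lay in all 3 of its coding transcripts, and Slc40a1 had only 1. Among 21875 genes searched, a site with all 5 pairs was present in the 5′UTR of 28 (0.128%) and in the 3′UTR of 127 (0.581%). With 4 or more pairs the shares were 0.8% and 3.92%. No site with these letters and 4 or more pairs was found in the coding transcripts of Aco1, Ireb2, Ncoa4 or Hmox1. So 5 of the 9 genes carry the element by this search, and the other 4 belong to the set as its binding proteins or as neighbours in the pathway.

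**Figure D1:**
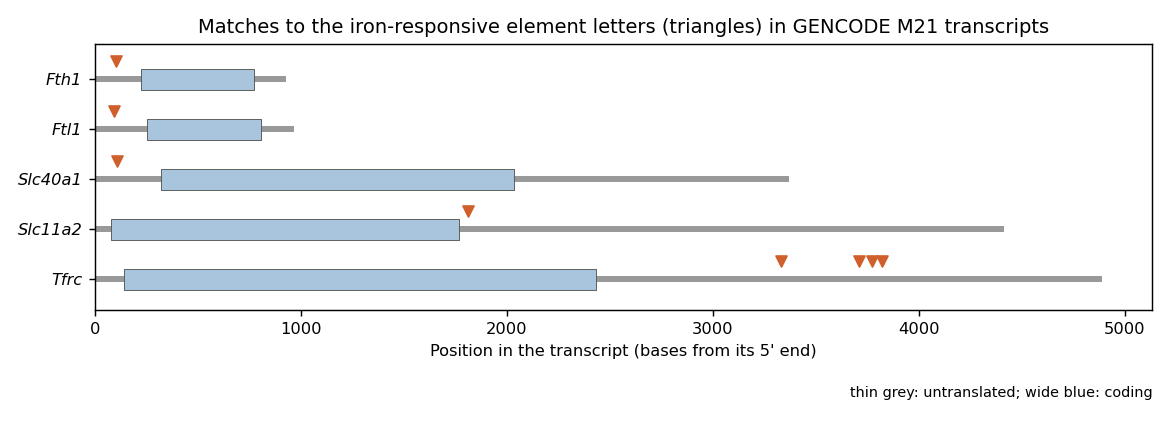
Transcripts of the 5 genes with a match, drawn to scale in bases from the 5′ end, with untranslated parts thin and coding parts wide. Triangles mark the 8 matches: 1 near the 5′ end of Fth1, Ftl1 and Slc40a1, 1 just after the coding part of Slc11a2 and 4 in the 3′UTR of Tfrc.

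The libraries held 32.3 to 57.9 M reads, and the least abundant member, Slc40a1, was counted with at least 90 reads in each. Levels are given in CPM, counts per 1000000 reads, and changes as differences of log2(CPM + 1), which understate the change of low genes. Prmt1 itself was at 256 to 285 CPM in control Total RNA and 147 to 176 in knockout Total RNA, and at 370 to 412 against 64.4 to 145 in Heavy RNA, while in Light RNA the groups overlapped at 218 to 255 against 166 to 235. The labels do not name the deleted exons. The knockout library numbered 1 lay farther from its group mean than the other two of its group, with a root mean square deviation over genes of 0.34 in Heavy, 0.24 in Light and 0.21 in Total RNA, where the other 15 libraries had 0.10 to 0.24. Member results that use knockout libraries and whose call changes without these 3 libraries are given below both ways. Osteoblast and osteosarcoma markers summed to 2340 to 13190 CPM, mostly collagens, with Bglap near 0. Macrophage markers, which bear on ferroportin and Hmox1, summed to 6.67 to 10.2 CPM in control and 12.2 to 23.1 in knockout libraries. Of these, Csf1r, Cd14 and Cd68 carried nearly all reads, and Emr1, Tyrobp and Cd163 were at 0 in Total RNA. The part of macrophage transcripts in the results below was not tested. Erythroid markers summed to 2.43 to 6.89 CPM, with 2 of 9 at 0 in all libraries. In bulk samples such as these, fewer cells that express a gene and less RNA per cell cannot be told apart.

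The ferritin messages were the most abundant of the 9 in Total RNA and were at lower levels in both gradient pools. Per kilobase of transcript, Ftl1 was at 4998 ± 327 and Fth1 at 1956 ± 53 CPM per kb in control Total RNA (SD, n = 3), followed by Hmox1 at 360 ± 69. Tfrc at 25.3 ± 3.6 and Slc11a2 at 24.1 ± 1.2 did not differ beyond their spread, nor did Aco1 at 19.0 ± 0.6 and Ncoa4 at 17.4 ± 2.4. Each length is that of 1 coding transcript per gene. For Slc11a2 it was 3025 bases, while its transcript with the element has 4415, so its place among these depends on that choice. Ireb2 at 4.89 ± 1.47 and Slc40a1 at 2.29 ± 0.31 were the lowest. In control Light RNA Ftl1 was still the highest of the 9, at 1377 ± 26. In control Heavy RNA Ftl1 was at 757 ± 88, Hmox1 at 684 ± 129 and Fth1 at 344 ± 34.

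Fth1, which oxidises iron for storage, was at 1791, 1786 and 1873 CPM in control Total RNA, at 611, 625 and 637 in Light RNA and at 352, 318 and 289 in Heavy RNA. Ftl1, its partner chain, was at 4585, 4736 and 5192 CPM in Total, 1351, 1304 and 1345 in Light and 829, 664 and 706 in Heavy RNA. For both genes the 3 fractions did not overlap. The Light level was 34.4% and the Heavy level 17.6% of the Total level for Fth1, and 27.6% and 15.2% for Ftl1. Every library is scaled to the same sum, so these compare relative levels and do not give the part of a message in a pool. By limma's moderated test with Benjamini-Hochberg adjustment over 17515 genes, the differences from Total were −1.54 (SE 0.20, adjusted p = 1.66e-05) in Light and −2.51 (adjusted p = 1.04e-07) in Heavy RNA for Fth1, and −1.86 and −2.73 for Ftl1 (adjusted p = 3.86e-06 and 5.16e-08). The comparisons of a gradient pool with Total RNA were chosen after the data had been seen, and they share the Total libraries.

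Coding length bears on where a message runs in a gradient, since a short message has room for fewer ribosomes. The 848 genes of 450 to 650 coding bases, a range around the 549 of Fth1 and 552 of Ftl1, had a median of 0.58 in Light minus Total and −0.35 in Heavy minus Total of control cells. Of those 848 genes, only the ferritins were as low as Fth1 in both pools. Of all 9651 genes of at least 5 CPM, 12 were (0.124%). These were Fth1, Ftl1, Mir692-2a, Mir692-2b, Pabpc1, Sepw1, Neat1, Snhg6, Map1b, Son, Spen and 1700020I14Rik, listed after their values were seen. Only Pabpc1 and Ftl1 itself were as low as Ftl1 in both. Pabpc1 encodes the poly(A) binding protein, Sepw1 a selenoprotein, and Neat1 is a noncoding RNA of the nucleus. Mir692-2a and Mir692-2b had equal values, and the hairpin of Mir692-2 shares a run of 59 of its 109 bases with the Ftl1 transcript on the same strand, so their reads and those of Ftl1 may not be separate. Ferritin genes also have processed pseudogenes, and Ftl1 overlaps Gm10252 and Gm22133, so reads of these messages could be split or shared by the counting.

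In knockout cells the ferritins were again lower in both pools than in Total RNA. The Light level was 28.6% and the Heavy level 13.5% of the Total level for Fth1, and 22.6% and 12% for Ftl1. The differences from Total were −1.86 and −2.91 for Fth1 and −2.21 and −3.08 for Ftl1, each past the test, beside like-length medians of 0.36 and −0.46. There 5 of the 9651 genes were as low as Fth1 in both pools and 2 as low as Ftl1. Whether the pools differed from Total by more in knockout than in control cells was tested directly: the difference of differences for Fth1 was −0.32 in Light (95% interval −0.91 to 0.27, adjusted p = 0.622) and −0.41 in Heavy (−1.0 to 0.18, adjusted p = 0.825), neither past the test. Without the knockout libraries numbered 1 these were 0.002 and −0.15. Gradient fractions outside the Light and Heavy pools were not analysed here.

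**Figure D2:**
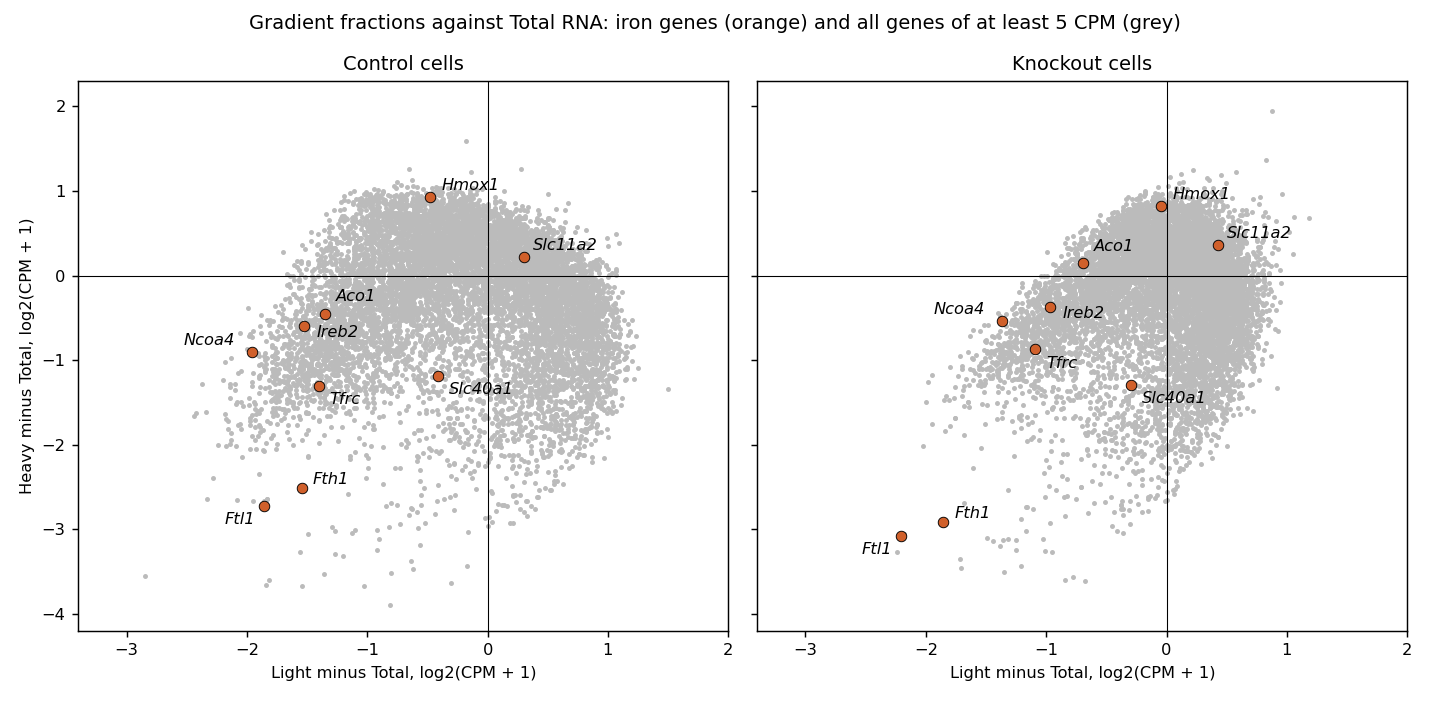
Difference of each gene from Total RNA in Light (horizontal) and Heavy RNA (vertical), on the log2(CPM + 1) scale, as group means of 3 libraries in control cells (left) and knockout cells (right). Fth1 and Ftl1 sit at the lower left edge of the cloud in both, at −1.54 and −2.51 and at −1.86 and −2.73 in control cells. Hmox1 sits at the upper side of the cloud, and Slc11a2 lies inside it, above 0 on both axes.

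The other members differed from Total in their own ways. Of the 9 genes, 6 were lower and 1 higher in control Light than in Total RNA, beside 28% and 16.5% of all genes, and 6 were lower and 1 higher in Heavy, beside 31.3% and 12.8%. In knockout cells 6 were lower and 1 higher in Light (15.7% and 11% of all genes) and 4 lower and 2 higher in Heavy (28.9% and 13%). Tfrc was at 141, 124 and 106 CPM in control Total RNA, 38.4, 51.8 and 48.4 in Light and 35.5, 58.5 and 56.6 in Heavy RNA. Its fractions did not overlap Total, and Light and Heavy overlapped each other, with a difference of 0.10 (95% interval −0.26 to 0.45). In control cells Ncoa4 fell in Light by 1.96 (SE 0.27, adjusted p = 3.00e-05), where Ftl1 fell by 1.86, from 67.3, 54.0 and 53.0 CPM to 12.2, 13.0 and 17.8. Ireb2 and Aco1, whose products read the cell's iron, were lower in Light there by 1.52 and 1.35. Slc11a2 was the only member higher in Light than in Total in both kinds of cells, by 0.30 and 0.43 (adjusted p = 0.00866 and 0.00247). Hmox1 was higher in Heavy than in Total RNA by 0.93 in control and 0.82 in knockout cells. Aco1 in control Heavy RNA was lower by 0.45 (adjusted p = 0.0228), a call lost when control Heavy library 1 or 2 or control Total library 1 or 3 was left out (adjusted p = 0.05 to 0.0804). It was −0.12 with median-of-ratios scaling (adjusted p = 0.62) or the coding-length trend removed (adjusted p = 0.48) and −0.24 with quantile normalization (adjusted p = 0.231). Ncoa4 there was lower by 0.91, a call lost without control Heavy library 1 or control Total library 1, with quantile normalization (−0.61, adjusted p = 0.0604) and with median-of-ratios scaling (−0.58, adjusted p = 0.0725). In knockout cells its Heavy level differed from Total by −0.54 (adjusted p = 0.125), by −0.83 without the knockout libraries numbered 1 (adjusted p = 0.00773), and with the library number as a block the adjusted p was 0.0472.

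In Heavy against Light RNA the storage and export messages were the only members lower by the test. In control cells 4 members were higher in Heavy (23.6% of all genes) and 3 lower (27.1%). The higher ones were Hmox1 by 1.4, Ncoa4 by 1.05, Ireb2 by 0.93 and Aco1 by 0.90. The lower ones were Fth1 by −0.97, Ftl1 by −0.87 and Slc40a1 by −0.77, which are the members with the element in the 5′UTR. Their 3 Heavy libraries lay below their 3 Light libraries in each case, as for Slc40a1 at 2.26, 2.88 and 3.42 CPM in Heavy against 4.82, 5.05 and 6.88 in Light RNA. The Heavy libraries of Slc11a2 also lay below its Light libraries. Its difference of −0.09 (adjusted p = 0.459) was called lower in 2 of the 30 alternatives. Genes of 450 to 650 coding bases, the range of the ferritins, had a median of −0.98. With the trend on coding length removed the difference was −0.03 for Fth1 (adjusted p = 0.867) and 0.07 for Ftl1 (adjusted p = 0.749), while that of Slc40a1 was past the test in each of the 30 alternatives.

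In knockout cells 3 members were higher in Heavy than in Light (16.8% of all genes) and 3 lower (26.8%). Hmox1 was higher by 0.86, Aco1 by 0.84 and Ncoa4 by 0.83, the last lost without knockout Heavy library 1 (0.46, adjusted p = 0.119) and without knockout Light library 2 or 3. Ireb2 was higher by 0.59 with non-overlapping groups (adjusted p = 0.0629, and 0.0341 with the library number as a block). Fth1 was lower by −1.06, Ftl1 by −0.87 and Slc40a1 by −1.0, beside a like-length median of −0.84 for the ferritins. With the length trend removed the ferritin differences were −0.26 and −0.07 and no longer past the test. The Heavy to Light difference of 0 of 9 members differed between knockout and control cells by the test, beside 2.87% of all genes, and 0 of 9 had an unadjusted p under 0.05. Voom on the recovered reads also called 0. For the change of Heavy against Total (0.0114% of all genes) and of Light against Total (0%), 0 members were called and 1, Aco1, had an unadjusted p under 0.05. The largest of the 9 shifts in Heavy against Light was that of Hmox1, whose Heavy to Light ratio was 2.60 in control and 1.81 in knockout cells, a difference of −0.54 (95% interval −1.17 to 0.10, adjusted p = 0.438). The interval for Fth1 was −0.68 to 0.50 and for Ftl1 −0.59 to 0.59.

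Hmox1, Tfrc and, by smaller amounts, Slc11a2 were higher in knockout than in control cells in all 3 RNA preparations. The Slc11a2 calls were lost with median-of-ratios scaling, as given below. In Total RNA 5 of the 9 genes were higher in knockout cells and none was lower by the test, beside 16.1% and 10.3% of all 17515 genes. In Light RNA 7 were higher (26.8% of all genes) and none lower (12.7%), and in Heavy RNA 3 were higher (18.5%) and none lower (10.4%). The libraries of the groups did not overlap for 7, 6 and 4 of the 9, beside 44.5%, 50.6% and 37.9% of all genes. Of the 17515 genes behind such shares, 9651 had a mean of at least 5 CPM, as all 9 members did. Shares over genes of the members' levels were not counted. The 3 comparisons were made in separate libraries of the same lysates. Over the 9651 genes of at least 5 CPM the median change was −0.03 in Total, 0.14 in Light and 0.02 in Heavy RNA, and scaling by the median of ratios to a common reference put it at −0.08, −0.08 and −0.15. Under that scaling the share of called genes that were higher moved from 60.9%, 67.9% and 64.1% to 53.7%, 46.2% and 44.6%, and quantile normalization put it at 48.8%, 47.3% and 48.9%. The members' changes stand beside these medians.

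Tfrc, which brings in iron bound to transferrin, was at 204, 234 and 216 CPM in knockout Total RNA, 103, 105 and 97.2 in Light and 123, 125 and 108 in Heavy RNA. Each knockout library lay above each control library of its fraction. The knockout level was 1.76 times the control level in Total, 2.2 times in Light and 2.36 times in Heavy RNA. The changes were 0.82 (SE 0.17, adjusted p = 0.0015), 1.13 (adjusted p = 5.72e-05) and 1.25 (adjusted p = 3.22e-05), and were past the test in each of the 30 alternatives run. The Heavy change exceeded the Total change by 0.43 (95% interval −0.06 to 0.93, adjusted p = 0.715), which was not past the test.

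Hmox1, which breaks down haem, was at 577, 451 and 665 CPM in control Total RNA and 1011, 1237 and 1430 in knockout Total RNA. In Light RNA it was at 508, 279 and 453 against 1135, 1078 and 1339, and in Heavy RNA at 1203, 841 and 1177 against 1979, 2285 and 2180. No fraction overlapped between the groups. The changes of 1.12 (SE 0.21, adjusted p = 0.000855), 1.56 (adjusted p = 2.92e-05) and 1.02 (adjusted p = 0.00169) were past the test in each of the 30 alternatives. Hmox1 carried the highest change of the 9 in Total and Light RNA, above 97.1% and 97.5% of genes of at least 5 CPM.

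The ferritins rose in Total RNA. Fth1 was at 3789, 3500 and 3196 CPM in knockout cells, 1.92 times the control level, a change of 0.94 (SE 0.20, adjusted p = 0.00197). Ftl1 was at 7840, 7568 and 8137 CPM, 1.62 times the control level, a change of 0.70 (adjusted p = 0.0146). Neither overlapped its control libraries. The Ftl1 call was lost with quantile normalization (0.48, adjusted p = 0.146) and without control Total library 1 (0.66, adjusted p = 0.0513).

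In the gradient pools the ferritins depended on single libraries. Fth1 was at 673, 1002 and 1324 CPM in knockout Light RNA and 349, 518 and 545 in Heavy RNA, with library 1 the lowest of each and inside the control range in Heavy RNA. Ftl1 was at 1208, 1617 and 2502 CPM in Light and 755, 944 and 1117 in Heavy RNA, again lowest in library 1. The Fth1 change was 0.63 in Light (adjusted p = 0.0187) and 0.53 in Heavy RNA (adjusted p = 0.0523), and that of Ftl1 was 0.35 in each, not past the test. Without the knockout libraries numbered 1, Fth1 in Heavy was 0.74 (adjusted p = 0.000161) and Ftl1 was 0.59 in Light (adjusted p = 0.00553) and 0.49 in Heavy RNA (adjusted p = 0.0223). Without knockout Light library 3, Fth1 in Light was 0.40 (adjusted p = 0.11), and with median-of-ratios scaling it was also 0.40 (adjusted p = 0.13).

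**Figure D3:**
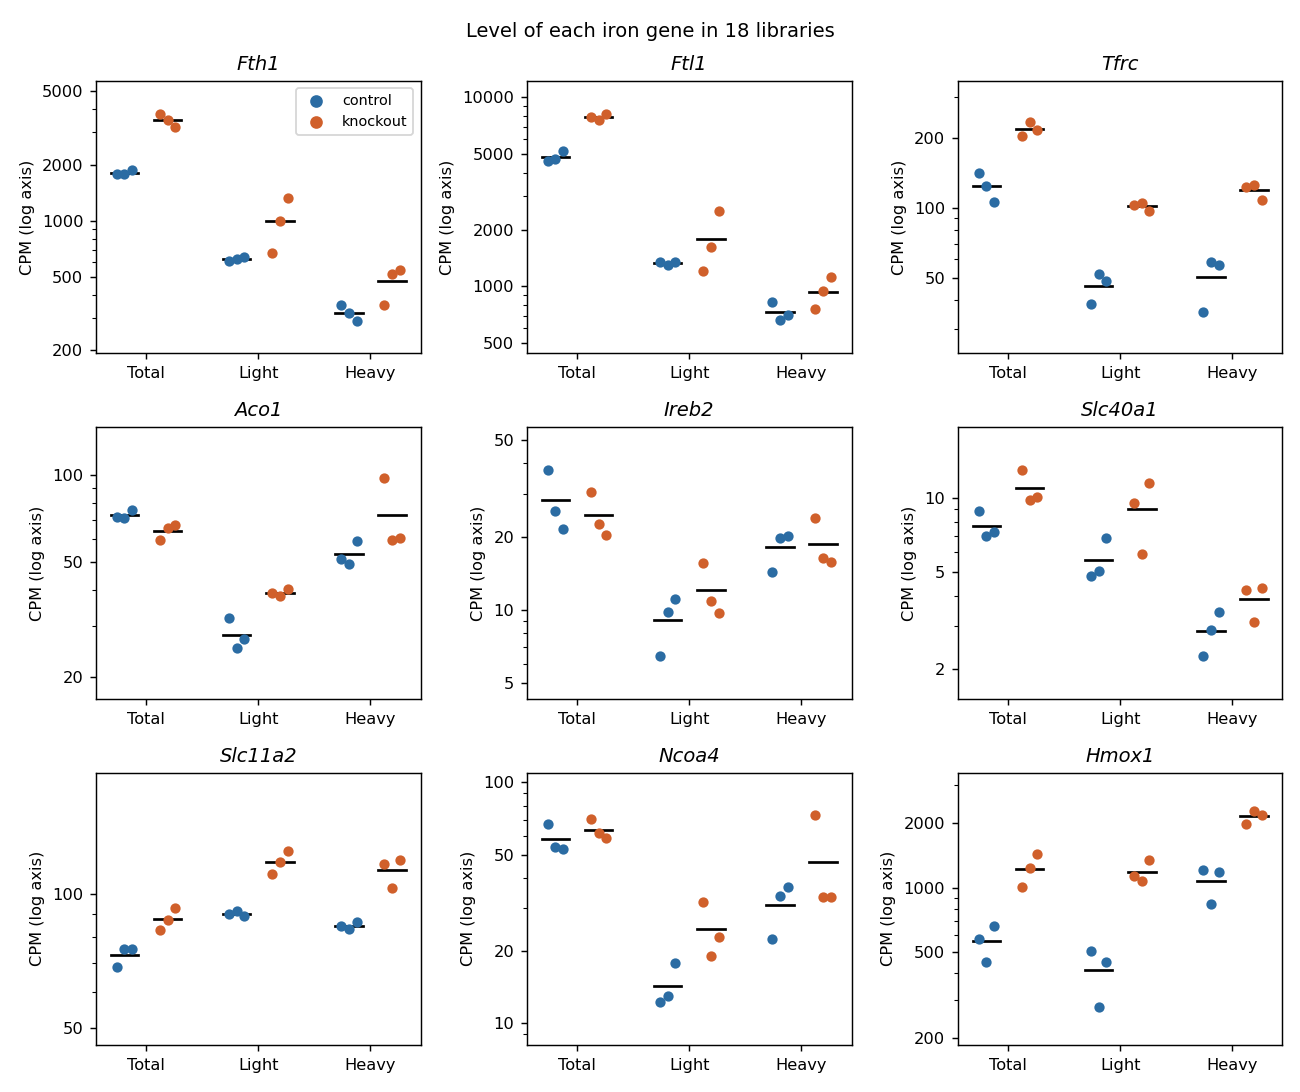
CPM of each of the 9 genes in every library (points, left to right libraries 1 to 3, log axes with a range of their own), with control in blue, knockout in orange and the group mean as a bar. Tfrc, Hmox1 and Slc11a2 are higher in knockout without overlap in all 3 preparations, and knockout Heavy library 1 stands apart for Aco1 (97.9 CPM) and Ncoa4 (73.1 CPM).

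Slc11a2, which moves ferrous iron out of endosomes, was higher in knockout cells by small and even amounts. It was at 68.6, 75.0 and 75.1 CPM in control and 82.8, 87.1 and 92.7 in knockout Total RNA, at 89.1 to 91.6 against 111 to 125 in Light and at 83.3 to 86.3 against 103 to 119 in Heavy RNA. No fraction overlapped. The changes were 0.26 (adjusted p = 0.0357), 0.38 (adjusted p = 0.00237) and 0.41 (adjusted p = 0.00194). These changes lay above those of 76.4%, 66.5% and 77.4% of genes of at least 5 CPM. With median-of-ratios scaling they were 0.21 (adjusted p = 0.129), 0.16 (adjusted p = 0.219) and 0.24 (adjusted p = 0.0711). With the coding-length trend removed the Light change was 0.06 (adjusted p = 0.612), and the Total call was also lost without any 1 of 5 Total libraries, all but knockout library 1. Slc11a2 overlaps Gm5475, and the table does not separate its isoforms with and without the element.

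Slc40a1, the known iron exporter of mammalian cells, was at 8.91, 7.0 and 7.26 CPM in control and 13.1, 9.85 and 10.1 in knockout Total RNA. The groups did not overlap, and the change of 0.46 was not past the test (95% interval 0.03 to 0.89, adjusted p = 0.111). In Light RNA it was higher by 0.58 (adjusted p = 0.0331) with overlapping groups, 4.82 to 6.88 against 5.90 to 11.5 CPM, and without the knockout libraries numbered 1 this was 0.51 (adjusted p = 0.089). The Light call was also lost without control Light library 1 or 2 or knockout Light library 3, when only its own libraries were fitted, with quantile normalization (0.33), median-of-ratios scaling (0.38) or voom (0.47), and with the coding-length trend removed (0.26, adjusted p = 0.229). In Heavy RNA the change was 0.34 (adjusted p = 0.233). The summed macrophage markers given above moved in the same direction, and their part was not tested.

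Aco1 and Ireb2, the iron regulatory proteins, had no change past the test in Total RNA. Aco1 was at 71.8, 70.9 and 75.5 CPM in control and 59.6, 65.4 and 67.1 in knockout Total RNA, so that the groups did not overlap and knockout was lower, by −0.18 (adjusted p = 0.417). In Light RNA it was higher by 0.47 (adjusted p = 0.0205), at 25.1 to 31.9 against 38.0 to 40.3 CPM, a call lost without control Light library 2 or 3 or knockout Light library 3, with quantile normalization (0.28), with median-of-ratios scaling (0.25, adjusted p = 0.235) and with the coding-length trend removed (0.06, adjusted p = 0.72). In Heavy RNA it was at 51.0, 49.4 and 58.9 against 97.9, 59.8 and 60.6 CPM, a change of 0.41 (adjusted p = 0.0513), and of 0.18 without the knockout libraries numbered 1 (adjusted p = 0.206). The Light change exceeded the Total change by 0.66 (95% interval 0.20 to 1.11, adjusted p = 0.12), which passed the test without the knockout libraries numbered 1 (0.61, adjusted p = 0.0335). Ireb2 overlapped between groups in all 3 preparations, with changes of −0.18, 0.37 and 0.04, and its intervals reached −0.71 and 0.89.

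Ncoa4 was higher in Light RNA by 0.72 (adjusted p = 0.0421), at 12.2, 13.0 and 17.8 against 31.8, 19.0 and 22.8 CPM, and overlapped between groups in Total and Heavy RNA. The Light call was lost in 14 of 30 alternatives, including without knockout Light library 1 (0.53, adjusted p = 0.186). In Heavy RNA knockout library 1 was at 73.1 CPM and the other two at 33.4 and 33.5, beside 22.4 to 36.9 in control libraries, a change of 0.51 with library 1 (adjusted p = 0.182) and 0.14 without the knockout libraries numbered 1.

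**Figure D4:**
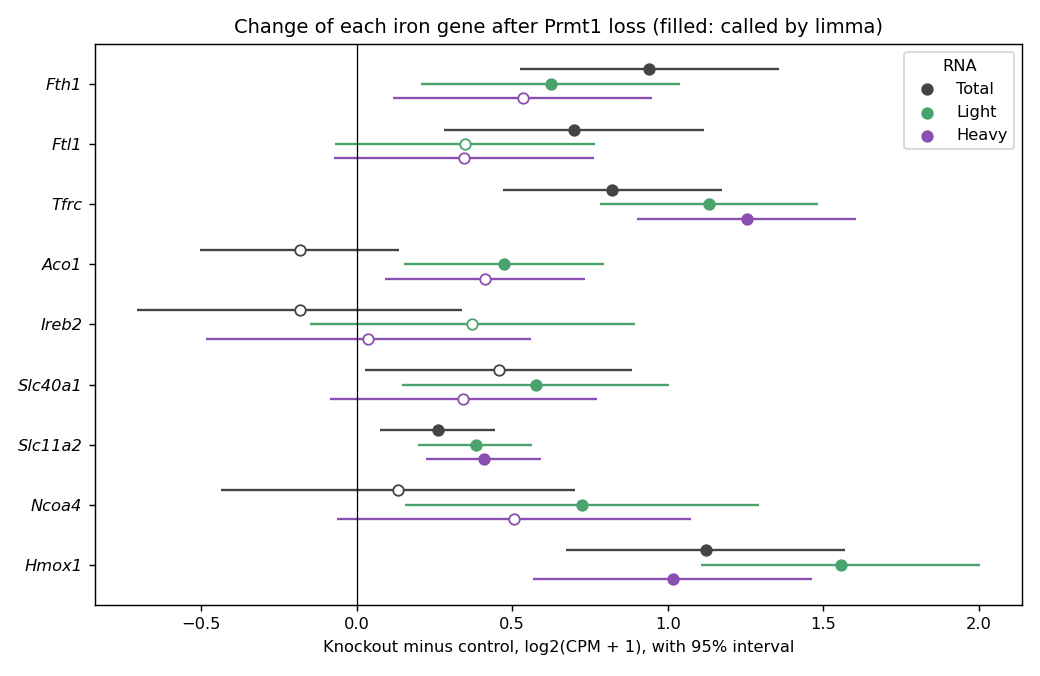
Knockout minus control for each gene in Total, Light and Heavy RNA on the log2(CPM + 1) scale, with 95% intervals (limma, 3 libraries a group) and filled points past the test. Tfrc, Hmox1 and Slc11a2 are filled in all 3 rows, and Aco1 and Ireb2 lie left of 0 in Total RNA only.

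Across all 18 libraries Fth1 and Ftl1 ran together, with a Pearson correlation of 0.988, which is largely the difference between fractions. With each group's mean removed it was 0.908. By the same measure the genes most like Fth1 were Ftl1 and then Mir692-2b and Mir692-2a (0.986), which share sequence with Ftl1. Those most like Tfrc were Tmem131 (0.986), Mia3 (0.981) and Suv420h1 (0.98). Those most like Hmox1 were Taldo1 (0.977), Gprc5a (0.977) and Nqo1 (0.974), of which Taldo1 and Nqo1 are metabolic enzymes. Those most like Slc40a1 were Lins (0.969), Kat2b (0.954) and Pan3 (0.954). These libraries share lysates and fractions, and the correlations are a description. Within groups Ireb2 and Ncoa4 also varied together (0.81), and Fth1 varied against Ncoa4 (−0.668). In knockout Heavy and Light RNA, library 1 was the highest of its group for Ncoa4 (73.1 and 31.8 CPM) and Ireb2 (23.9 and 15.6 CPM). It was the lowest there for Fth1 (349 and 673 CPM). How far the within-group correlations rest on library 1 was not tested.

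Of 90 other iron genes in the table, grouped by role, 86 were tested. In Total RNA of knockout cells 20 were higher and 6 lower with a median change of 0.16, in Light 42 and 12 with 0.27, and in Heavy RNA 24 and 14 with 0.10, beside the medians of all genes given above. Over all genes, 16.1% were higher and 10.3% lower in Total, 26.8% and 12.7% in Light and 18.5% and 10.4% in Heavy RNA. Targets and regulators of NRF2 were higher in 5 of 14 in Total, 11 in Light and 5 in Heavy RNA, with 1 lower in each, beside 16.1%, 26.8% and 18.5% of all genes higher. Osgin1 was at 36.5 to 47.9 CPM in control and 136 to 165 in knockout Total RNA, a change of 1.81. Nqo1 was higher in Light RNA by 1.89. The lower one was Keap1, which marks NRF2 for destruction, at 56.1 to 63.9 CPM in control and 27.0 to 27.3 in knockout Total RNA, with changes of −1.13, −0.97 and −1.25. Hmox1 and Keap1 thus differed in opposite directions in each preparation.

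Of 11 genes of uptake and reduction, 5 were higher in Total RNA and none lower, beside 16.1% and 10.3% of all genes. Scara5, a receptor that binds ferritin, was at 0.03 to 0.38 CPM in control Total RNA and at 26.1, 5.65 and 6.36 in knockout, so that library 1 was the highest. Its changes were 3.23, 3.47 and 3.48. Lrp1, which takes up haem bound to haemopexin, was higher in Heavy RNA by 1.87, at 75.6 to 99.6 against 271 to 429 CPM. Of 7 tested genes of export and systemic control 3 were higher and none lower in Total RNA, beside the same shares of all genes. The higher ones included the hepcidin inducer Bmp6, by 1.38. Of 24 iron-sulfur assembly and mitochondrial iron genes, 6 were higher and 8 lower in Light RNA (median −0.17), beside 26.8% and 12.7% of all genes. In Heavy RNA 3 were higher and 5 lower (median −0.09), beside 18.5% and 10.4%. In Total RNA 1 was higher and 2 lower (median 0.01), beside 16.1% and 10.3%. The ones lower in Total RNA were Glrx5, by −0.60, a call lost when any 1 of the Total libraries was left out, and Iba57 by −0.69.

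Of 9 other messages reported with an element, 3 were higher and 1 lower in Total RNA, 5 higher in Light and 4 in Heavy RNA, beside 16.1% higher and 10.3% lower in Total and 26.8% and 18.5% higher in Light and Heavy RNA over all genes. Their median change was 0.16 in Total, 0.35 in Light and 0.03 in Heavy RNA.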

How the data were processed

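RNA-seq values of 18 mouse osteosarcoma libraries were used as deposited by the authors, in 1 table of log2 values. Undoing the log2 gave columns that sum to 1000000, so the deposited values are log2(CPM + 1), and whole reads were recovered for 100% of values within 0.1 read. Per the submitters' processing notes, STAR, edgeR and mm10 were used. The read counter, its annotation and the use of strand: not given in the sources used here. No value column lacked a sample (0).

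Genes above 0 in at least 3 libraries (17515) were fitted with limma 3.58.1 in R 4.3.3 (trend, robust) as 6 group means over all 18 libraries, with Benjamini-Hochberg adjustment over all of them and a threshold of 0.05. The script was tested on simulated data. The members and lists were chosen with earlier results of these data known. The comparisons of pools with Total RNA were added after seeing the data. The text names all 9 members, Prmt1, and, of the other iron genes, per comparison up to 3 with the highest and 3 with the lowest change among those called with a mean of at least 5 CPM, and for 4 members the 3 most correlated genes. Library numbers pair Heavy with Light RNA (correlation of deviations 0.324 to 0.412 in control, 0.276 to 0.602 in knockout) and Light with Total RNA in knockout cells (0.434 to 0.642), but neither control with knockout nor control Total with its pools. Transcripts, lengths and sites came from GENCODE M21, and the Mir692-2 hairpin from RefSeq. Python 3.11.15 with numpy 2.4.6, pandas 2.3.3 and matplotlib 3.10.9 was used. Alternatives are given in the closing section. A result on a further gene is not reported here.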

Additional observations from a re-analysis of the deposited data

Results flagged for a closer look

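Of the 86 other iron genes tested, 1 had a Heavy to Light difference that was higher in knockout than in control cells and 5 had one that was lower, by limma's test of the interaction with Benjamini-Hochberg adjustment, beside 2.87% of all genes called either way. Most of all genes called either way were lower as well. With median-of-ratios scaling that lean was not seen, as given at the end. The naming rule selects 4 of the iron genes called. Fdx1l, a mitochondrial ferredoxin, differed by 0.703 (SE 0.18, adjusted p = 0.0461): it was at 6.22 to 8.11 CPM in Heavy and 28.3 to 37.3 in Light RNA of control cells, and at 9.55 to 11.9 and 24.7 to 29.8 in knockout cells. Pcbp1, an iron chaperone that loads ferritin, differed by −0.686 (adjusted p = 0.0455), from 861 to 892 CPM in Heavy and 326 to 357 in Light RNA of control cells to 550 to 732 and 345 to 487 in knockout cells. Steap3, an endosomal iron reductase, differed by −0.732 (adjusted p = 0.0256), from 34.6 to 36.5 and 11.9 to 13.3 CPM to 39.7 to 50.3 and 25.6 to 29.9. Blvra, biliverdin reductase, which acts after haem oxygenase, differed by −0.915 (adjusted p = 0.0194), from 68.5 to 81.7 and 21.95 to 25.4 CPM to 45.2 to 61.1 and 31.1 to 38.3. All 4 calls were lost with median-of-ratios scaling (adjusted p = 0.069 to 0.124), where the differences were 0.77, −0.632, −0.686 and −0.867, and when only their own libraries were fitted. Of 30 alternatives, the call was lost in 21 for Fdx1l, 22 for Pcbp1, 13 for Steap3 and 9 for Blvra, with the direction kept in each.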

How the results depend on the processing

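Of 108 member results, 55 were called, 39 of them under each of 30 alternatives, 15 were lost in at least 1, and 12 uncalled ones were called in at least 1. The difference of Ftl1 between Heavy and Light RNA of control cells turned from −0.87 to 0.066 with the coding-length trend removed, with or without the replicate block. The count of members higher in knockout Light RNA (7) was 4 with quantile normalization or the length trend removed (with or without the replicate block), and 2 with median-of-ratios scaling or voom on recovered reads. That in Heavy RNA (3) was 5 with a mean of at least 1 CPM, a pseudocount of 0.1, the replicate block with the length trend removed, or without the knockout libraries numbered 1, and genes called there (5061) were 2976 when only its own libraries were fitted. For Light minus Total between genotypes (0 members), 1 was called with only its own libraries or without the knockout libraries numbered 1.

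Genes called for the change of Heavy against Light (503) were 152 with quantile normalization, 49 with median-of-ratios scaling, 756 without trend, 8 with only its own libraries, 24 with the length trend removed, 165 with that and the replicate block, 1872 without the knockout libraries numbered 1 and 15 with voom. For Heavy against Total (2) they were 1 with no filter, 0 with a mean of 1 CPM or more, 0 with a pseudocount of 0.1, 1 with the replicate block, 4 without the knockout libraries numbered 1 and 0 with voom. For Light against Total (0) they were 17 with quantile normalization, 347 with a mean of 1 CPM or more, 465 without trend, 1143 with only its own libraries and 785 without the knockout libraries numbered 1. Light minus Total in knockout cells (4674 genes) gave 7280 with the replicate block and the length trend removed.

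Leaving out each library in turn gave 3 to 5 members in Total (3 without control library 1), 3 to 7 in Light (3 without knockout Light library 3, 4 without control Light library 1 or 2) and 3 to 4 in Heavy RNA. It gave 7 for Heavy against Light in control and 5 to 7 in knockout cells, 5 to 9 for Heavy against Total in control cells, 7 to 8 for Light against Total there, 7 for Light against Total and 6 to 7 for Heavy against Total in knockout cells, and for the 3 interactions 0, 0 and 0 to 1. Over all genes it gave 3598 to 5640 in Total, 5642 to 7828 in Light and 3951 to 5593 in Heavy RNA, 8004 to 9322 and 6624 to 7953 for Heavy against Light in control and knockout cells, 6826 to 8383 and 2742 to 5935 (2742 without knockout Light library 2) for Light against Total, 6632 to 8469 and 6248 to 7494 for Heavy against Total, and 7 to 2011, 1 to 9 and 0 to 1405 for the interactions of Heavy with Light, Heavy with Total and Light with Total.

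The replicate block also moved Ireb2 (−0.595, adjusted p = 0.0335) and Hmox1 (−0.476, adjusted p = 0.0056), control Heavy and Light against Total, and Ncoa4 (−0.535, adjusted p = 0.0472), knockout Heavy against Total, past the test, and changed no other member call except that of Ireb2 given above. Same-numbered libraries did not deviate together in every pair there. Against Total, median-of-ratios scaling moved the share of called genes that were higher from 37.1% to 54.2% (Light) and from 29.1% to 51% (Heavy) in control cells, and the medians from −0.17 to 0.07 and from −0.18 to 0.14. In knockout cells the share went from 38.6% to 48.8% (55.8% with quantile normalization) for Heavy against Light, from 31% to 47.9% (57.3%) for Heavy against Total and from 41.1% to 50.9% (53.3%) for Light against Total. For the interaction of Heavy with Light it went from 12.3% to 53.1% with median-of-ratios scaling. The edgeR fits planned as alternatives were not run, because the deposited unit is log2. Slc40a1 had the fewest reads, 90 to 585 a library.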
